A study of Homo sapiens with 6 samples.

Results

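The 10 genes described here encode receptor tyrosine kinases through which tumour cells can signal when other receptors are blocked, with the ligands of 2 of these receptor groups. They were chosen by gene symbol: the receptors MET, AXL, MERTK, TYRO3, IGF1R, INSR, EPHA2 and DDR1, and the ligands HGF and GAS6. Each symbol matched 1 row of the 26184 genes and loci in the table. RNA was sequenced from 2 lines of Huh7, a human hepatocellular carcinoma cell line labelled WT in genotype, with 3 samples in each. Huh7 P is the untreated parental line at time 0, and Huh7 LR was derived from it by continuous exposure to lenvatinib at 1 to 20 μM over about 10 months. Huh7 LR is 1 derived line, so its 3 samples share that derivation. The methods call the samples independent without naming separate cultures, and the p-values cover the spread between samples of the 2 lines. Huh7 LR was kept in medium with lenvatinib at 20 μM, and the sources do not say if the drug was present when RNA was taken.

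Receptor tyrosine kinases bind a ligand outside the cell, dimerise, phosphorylate each other and recruit adaptors that feed the MEK/ERK and PI3K/AKT pathways. Lenvatinib blocks the VEGF and FGF receptors, PDGFRα, KIT and RET, so the receptors described here lie outside its main targets. In the liver, HGF is made by stromal cells and acts on MET in hepatocytes. GAS6 acts on the TAM receptors TYRO3, AXL and MERTK, and protein S on TYRO3 and MERTK. Insulin and the IGFs act on INSR and IGF1R. EPHA2 binds ephrin-A proteins on neighbouring cells, and DDR1 binds collagen.

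Between 62738937 and 71427573 reads were counted per library. For a gene at 0, the limit is 3 counts per library, or 0.0418 to 0.0486 CPM (library-scaled counts with edgeR's TMM factors), for counting error only. All 8 hepatocyte markers examined were present, ALB with a mean of 13000 CPM in Huh7 P and 21600 CPM in Huh7 LR and AFP with 23000 and 19600 CPM. Of the 8, 4 passed edgeR's test as higher in Huh7 LR (ALB, APOA1, TTR and TF, adjusted p under 0.05), or 50.0% against 23.3% of all genes and loci tested. Lower markers numbered 0, against 22.4% of all tested. The other 4, AFP among them, did not pass, and the median log2 fold change over the 8 was 0.32. Of 7 fibroblast markers, DCN and POSTN were at 0 in all 6 libraries, and the summed FPKM of the 7 was 0.378 to 0.428 in Huh7 P and 0.848 to 1.68 in Huh7 LR. Of 6 leukocyte markers, TYROBP and HLA-DRA were at 0, and the summed FPKM was 37.0 to 40.9 in Huh7 P and 5.94 to 8.10 in Huh7 LR. LYZ made up most of it, with a mean of 38.3 FPKM in Huh7 P and 5.61 FPKM in Huh7 LR, and CD14 had 0.937 and 1.35 FPKM. Of 5 endothelial markers, CDH5, KDR and TEK were at 0, and the summed FPKM, mostly PECAM1, was 5.41 to 6.46 in Huh7 P and 8.96 to 9.80 in Huh7 LR. The part of these markers in the results was not tested. As the samples are bulk RNA, fewer cells with a transcript and less of it per cell cannot be told apart.

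The receptors fell into a group that was expressed in both lines and a single one, AXL, that was nearly absent, while both ligands were at or near 0. Levels of different genes were compared as FPKM, the authors' fragment values scaled for transcript length and library size. In Huh7 P the order by mean FPKM was MET at 21.1 ± 0.199 (SD, n = 3), EPHA2 at 20.8 ± 0.609, INSR at 11.1 ± 0.795, TYRO3 at 7.13 ± 0.442, IGF1R at 5.13 ± 0.579, DDR1 at 2.93 ± 0.369, MERTK at 2.91 ± 0.105 and AXL at 0.0657 ± 0.0164. MET and EPHA2 overlapped between their libraries, as did DDR1 and MERTK, and the other neighbours in this order did not. In Huh7 LR the order was MET at 23.0 ± 2.78 FPKM (SD, n = 3), INSR at 15.8 ± 1.16, EPHA2 at 15.6 ± 1.39, TYRO3 at 7.16 ± 0.348, DDR1 at 4.27 ± 0.723, IGF1R at 3.61 ± 0.264, MERTK at 3.38 ± 0.174 and AXL at 0.0541 ± 0.0169. In that line INSR overlapped with EPHA2, DDR1 with IGF1R, and IGF1R with MERTK. INSR and DDR1 thus stood 1 rank higher by mean than in Huh7 P, and EPHA2 and IGF1R 1 rank lower. Over both lines MET lay above 81.9% and EPHA2 above 78.2% of the 16790 annotated genes with at least 1 count, and AXL above 16.7%. The order depends on the length used: for DDR1 the counts and FPKM correspond to 3808 to 4140 bases, against 9122 bases in the union of its annotated exons, and for TYRO3 to 8640 to 8811 against 10945.

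**Figure D1:**
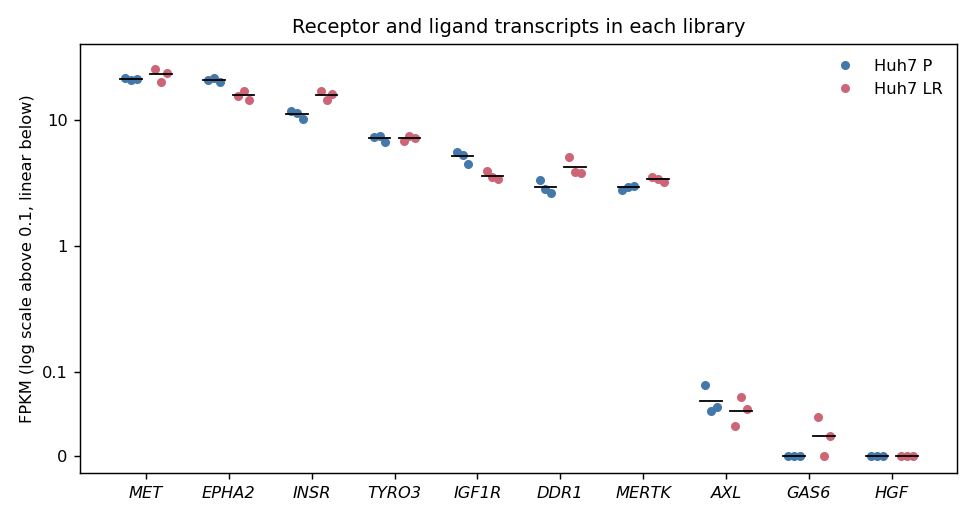
FPKM (vertical axis, logarithmic above 0.1 and linear below) of the 10 genes in each of the 3 Huh7 P and 3 Huh7 LR libraries, with points for libraries and bars for means. MET, EPHA2 and INSR lie above 10 FPKM in each library, AXL below 0.1, and HGF at 0.

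The lines were compared by edgeR's quasi-likelihood test over 17531 genes and loci with Benjamini-Hochberg adjustment, and calls were made at an adjusted p under 0.05 in either direction. Of the 10 genes, 8 had enough counts to test, and HGF and GAS6 did not. INSR and DDR1 were higher in Huh7 LR, 2 of 8, against 23.3% of all genes and loci tested. IGF1R and EPHA2 were lower, again 2 of 8, against 22.4%. In either direction, 4 of 8 were called against 45.7%, so the number of calls was near that of the whole table. MET, TYRO3, MERTK and AXL did not pass. With a limit of 2-fold at an adjusted p under 0.001 (the study's methods give that fold and level without saying that p was adjusted), 0 of the 8 were called in edgeR's test, against 6.21% of all tested. By that limit DESeq2 also called 0, and 4 had an unadjusted p under 0.05 without a fold limit in edgeR. The median log2 fold change was 0.03 over the 8 genes and 0.005 over all tested. The libraries of the lines did not overlap in CPM for 5 of the 8 genes, against 55.9% of all tested.

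**Figure D2:**
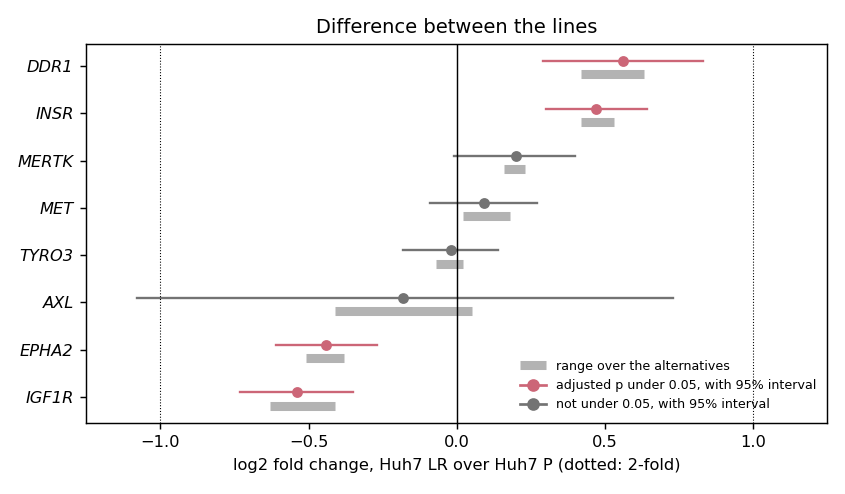
Log2 fold change of Huh7 LR over Huh7 P (horizontal axis) for the 8 genes tested, as points with 95% intervals, and the range over the alternative analyses as grey bars. IGF1R and EPHA2 lie below 0 and INSR and DDR1 above 0 with their intervals, and none of the 8 points reaches the dotted lines at 2-fold.

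HGF (ENSG00000019991, GRCh38 chromosome 7, 81699008 to 81770438), the ligand of MET, had 0 counts in each of the 6 libraries. MET (ENSG00000105976, chromosome 7, 116672390 to 116798386) was the receptor with the highest mean FPKM of the 8 in both lines. In Huh7 P, MET was counted 10715, 9105 and 9605 times, and in Huh7 LR 11128, 9736 and 11053 times. These correspond to 149, 148 and 147 CPM in Huh7 P and 171, 139 and 162 CPM in Huh7 LR. Huh7 LR replicates 1 and 3 lay above, and replicate 2 below, all Huh7 P libraries. The log2 fold change was 0.09 (standard error 0.08, 95% interval -0.09 to 0.27, edgeR adjusted p = 0.41), and the interval spans 0. Without Huh7 LR replicate 2, the log2 fold change of MET was 0.18 (edgeR adjusted p = 0.0317), so that library decides the call. The range of the adjusted p over its 15 alternatives was 0.0317 to 0.831.

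Pro-HGF is cut to its active form by serine proteases, which are held in check by Kunitz-type and serpin inhibitors. Of 10 genes of this processing step tested, 7 were higher (70.0%, against 23.3% of all tested), 2 lower (20.0%, against 22.4%) and 1 did not pass, and the median log2 fold change was 0.84. F12, which encodes coagulation factor XII, rose from 48.8 ± 1.21 CPM (SD, n = 3) to 144 ± 16.9 CPM (log2 fold change 1.56, edgeR adjusted p = 5.14e-07). PLAU, the gene of urokinase, had a log2 fold change of 1.64 and HGFAC, the gene of the HGF activator, one of 1.37. KLKB1, the gene of plasma kallikrein, had one of 1.44 (edgeR adjusted p = 0.00853). Its call was lost with limma-trend on unfiltered log2(FPKM + 0.1) (0.97, adjusted p = 0.055), and without Huh7 LR replicate 1 its log2 fold change was 0.99. HGFAC and KLKB1 stayed low, KLKB1 at a mean of 1.11 CPM in Huh7 LR. With limma-trend on log2(FPKM + 1), a scale that understates changes of low genes, the log2 fold change of HGFAC was 0.43, and its call held (adjusted p = 0.00191). Of the proteases 1 was lower, ST14, the gene of matriptase, at 0.441 and 0.172 mean CPM (log2 fold change -1.35, edgeR adjusted p = 0.0144), named after its values were seen. Among the inhibitors, chosen after their values were seen, SPINT1 rose (0.96), SERPINA5 rose (0.43, from 90.5 to 122 mean CPM) and SPINT2 fell (-0.86, from 3.65 to 2.01 mean CPM). Since HGF itself was at 0, these genes were measured in cells without detectable transcript of their substrate. Several of these proteases also act in coagulation and are made by hepatocytes. Markers of hepatocytes were higher in 4 of 8 cases as given above (50.0%, against 23.3% of all tested). The part of that difference here was not tested.

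In the TAM group, TYRO3 and MERTK were expressed in both lines, AXL was nearly absent, and none passed the test. TYRO3 (ENSG00000092445, chromosome 15, 41557675 to 41583586) had 64.3, 65.2 and 59.3 CPM in Huh7 P and 58.1, 65.3 and 62.6 CPM in Huh7 LR. The ranges overlapped, and the log2 fold change was -0.02 (standard error 0.07, 95% interval -0.18 to 0.14, edgeR adjusted p = 0.829). Its sign turned in the FPKM-based alternatives (0.01). MERTK (ENSG00000153208, chromosome 2, 111898479 to 112029561) had 11.9, 12.4 and 12.9 CPM in Huh7 P and 14.8, 14.3 and 13.5 CPM in Huh7 LR. Each Huh7 LR library lay above each Huh7 P library, but the difference did not pass (log2 fold change 0.20, standard error 0.09, 95% interval -0.01 to 0.40, edgeR adjusted p = 0.105). AXL (ENSG00000167601, chromosome 19, 41219203 to 41261766) was counted 26, 18 and 20 times in the Huh7 P libraries and 12, 26 and 20 times in those of Huh7 LR, which overlap. At this depth its log2 fold change of -0.18 had a 95% interval from -1.08 to 0.73 (edgeR adjusted p = 0.758). The counts thus allow a fall or a rise within that interval. Summed, the 3 TAM receptors had 10.1 ± 0.378 FPKM (SD, n = 3) in Huh7 P and 10.6 ± 0.298 FPKM in Huh7 LR, an overlap of the lines (p = 0.2 in a two-sided exact permutation test, which with 3 samples against 3 cannot go below 0.1).

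GAS6 (ENSG00000183087, chromosome 13, 113820549 to 113864067), a ligand of all 3 TAM receptors, was at 0 in each Huh7 P library, and was counted 8, 0 and 5 times in Huh7 LR. It was not tested, and no fold is given since 1 Huh7 LR library was also at 0. An antisense gene, GAS6-AS1, shares 421 bases of its exons, and whether counting used strand is not stated. The other ligand of TYRO3 and MERTK, protein S, is encoded by PROS1, which was chosen for mention after its values were seen. PROS1 rose from 302 to 370 mean CPM, by 0.29 on the log2 scale (edgeR adjusted p = 0.00529).

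The insulin and IGF receptors moved in opposite directions. INSR (ENSG00000171105, chromosome 19, 7112255 to 7294034) had 110, 109 and 98.2 CPM in Huh7 P and 155, 136 and 147 CPM in Huh7 LR. Its libraries did not overlap between the lines, and the log2 fold change was 0.47 (standard error 0.08, 95% interval 0.30 to 0.64, edgeR adjusted p = 0.000545). IGF1R (ENSG00000140443, chromosome 15, 98648539 to 98964530) had 72.3, 70.6 and 59.8 CPM in Huh7 P and 49.7, 45.6 and 43.9 CPM in Huh7 LR. Here each Huh7 LR library lay below each Huh7 P library, and the log2 fold change was -0.54 (standard error 0.09, 95% interval -0.73 to -0.35, edgeR adjusted p = 0.000482). Each of the 15 alternatives kept both calls, and the log2 fold change ranged from 0.42 to 0.53 for INSR and from -0.63 to -0.41 for IGF1R.

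The ratio of INSR to IGF1R within a library does not depend on how libraries are scaled. In FPKM it was 2.09, 2.14 and 2.27 for the Huh7 P libraries and 4.30, 4.15 and 4.66 for the Huh7 LR libraries, with no overlap. The mean ratio was 2.17 ± 0.0944 (SD, n = 3) and 4.37 ± 0.263 (SD, n = 3), a log2 ratio of 1.01 (two-sided exact permutation test, p = 0.1, the smallest possible, and 0.15 adjusted over 6 such values). As INSR was higher and IGF1R lower in every Huh7 LR library, the ratio had to separate the lines. Its p-value thus restates the calls of both genes and adds no support to them. INSR thus made up 68.4% ± 0.932 (SD, n = 3) of the summed FPKM of both receptors in Huh7 P and 81.4% ± 0.897 in Huh7 LR. The sum itself was 16.2 ± 1.37 FPKM (SD, n = 3) in Huh7 P and 19.4 ± 1.35 FPKM in Huh7 LR, again without overlap (exact permutation test, p = 0.1). The receptors form hybrid dimers when both proteins are present, which RNA counts do not show.

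**Figure D3:**
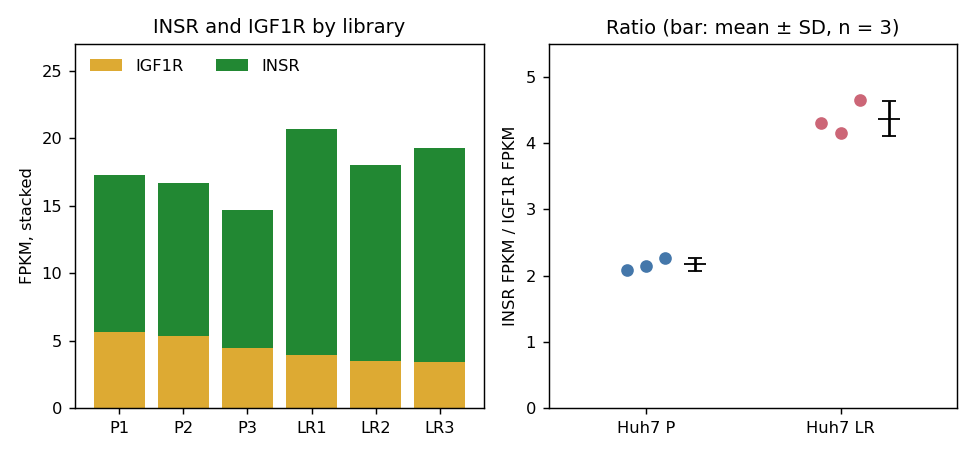
Left, FPKM of IGF1R and INSR stacked for each library (P1 to P3 Huh7 P, LR1 to LR3 Huh7 LR), and right, their ratio per library with mean ± SD. The ratio is 2.09 to 2.27 in Huh7 P and 4.15 to 4.66 in Huh7 LR, and the IGF1R bars are lower in each Huh7 LR library.

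The 250 bases before the RefSeq start of INSR and IGF1R (GRCh38.p14) are shown because these related receptors changed in opposite directions, and those of EPHA2 because it also fell. Capitals mark the GC box GGGCGG or its reverse complement CCGCCC, a letter run bound by Sp1, with overlapping matches merged. The INSR window is chr19:7294415-7294664 on the minus strand, the IGF1R window chr15:98648289-98648538 on the plus strand, and the EPHA2 window chr1:16156070-16156319 on the minus strand.
INSR: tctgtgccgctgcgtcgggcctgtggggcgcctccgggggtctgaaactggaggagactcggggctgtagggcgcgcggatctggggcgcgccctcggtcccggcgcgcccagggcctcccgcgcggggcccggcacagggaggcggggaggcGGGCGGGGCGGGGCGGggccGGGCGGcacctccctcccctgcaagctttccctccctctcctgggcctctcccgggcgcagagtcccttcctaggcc
IGF1R: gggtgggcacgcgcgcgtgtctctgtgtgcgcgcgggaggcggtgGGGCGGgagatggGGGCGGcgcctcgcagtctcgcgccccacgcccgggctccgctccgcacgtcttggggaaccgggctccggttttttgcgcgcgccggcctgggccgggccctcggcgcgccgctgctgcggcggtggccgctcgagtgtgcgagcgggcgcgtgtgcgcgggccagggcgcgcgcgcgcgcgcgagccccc
EPHA2: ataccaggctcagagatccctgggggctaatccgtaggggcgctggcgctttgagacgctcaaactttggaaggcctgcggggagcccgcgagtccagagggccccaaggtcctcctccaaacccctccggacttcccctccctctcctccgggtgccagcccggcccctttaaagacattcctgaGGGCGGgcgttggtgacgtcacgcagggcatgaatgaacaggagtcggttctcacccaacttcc
The INSR window held 4 GC boxes, the IGF1R window 2 and the EPHA2 window 1, against at least 1 in 42.6% of 35116 RefSeq windows of this length. G and C made up 78.4% of the INSR window, 81.2% of the IGF1R window and 63.2% of the EPHA2 window, where the median window had 58%. The letters of FOXO (GTAAACA, in 2.98% of windows), AP-1 (TGANTCA, 6.57%), the E-box (CACGTG, 6.34%) and the TATA box (TATAAA, 10.7%) were searched on both strands and matched in none of these 3 windows. GGAATG, bound by TEAD factors, matched once in the EPHA2 window and in 11.9% of all windows. These matches describe letters and show no binding.

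Of the ligands of INSR and IGF1R, INS was at 0 and IGF1 stayed at means of 0.225 and 0.116 CPM, too low to test. IGF2, mentioned after its values were seen, was abundant and rose from 810 to 1110 mean CPM (log2 fold change 0.45, edgeR adjusted p = 0.0064). IGF2 is given in the table by 2 rows, and the value is that of the row with more counts.

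EPHA2 and DDR1, whose ligands sit on neighbouring cells or in the matrix, also moved in opposite directions. EPHA2 (ENSG00000142627, chromosome 1, 16124337 to 16156087) had 89.3, 92.2 and 87.6 CPM in Huh7 P and 64.9, 72.9 and 60.7 CPM in Huh7 LR. All Huh7 LR libraries lay below all Huh7 P libraries (log2 fold change -0.44, standard error 0.08, 95% interval -0.61 to -0.27, edgeR adjusted p = 0.000891). DDR1 (ENSG00000204580, chromosome 6, 30876421 to 30900156) had 12.7, 11.6 and 10.8 CPM in Huh7 P and 20.5, 15.8 and 15.4 CPM in Huh7 LR. Huh7 LR replicate 1 was the highest, and the lines did not overlap (log2 fold change 0.56, standard error 0.12, 95% interval 0.29 to 0.83, edgeR adjusted p = 0.00363). With each library left out in turn the log2 fold change of DDR1 lay between 0.42 and 0.63. The ratio of MET to EPHA2 was 1.01 ± 0.0327 (SD, n = 3) in Huh7 P and 1.49 ± 0.276 in Huh7 LR on the FPKM scale (two-sided exact permutation test, p = 0.1, the smallest possible, adjusted 0.15).

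The other ligands of these receptors, 15 genes of which 9 were tested, were higher in 6 cases (66.7%, against 23.3% of all tested) and lower in 0 in edgeR's test (against 22.4%). At an unadjusted p under 0.05, 0 were lower, and DESeq2 also called 0 lower. The median log2 fold change of the 9 was 0.45. The ephrin genes EFNA1 and EFNA4, whose products bind EPHA2, had log2 fold changes of 0.76 (edgeR adjusted p = 0.000387) and 0.53 (edgeR adjusted p = 0.00424). The collagen genes COL2A1 and COL1A1, whose products bind DDR1, had log2 fold changes of 1.09 and 1.84. COL2A1 was abundant, with means of 1470 CPM in Huh7 P and 3140 CPM in Huh7 LR, and COL1A1, a fibroblast marker as well, was at 1.28 and 4.59 CPM. COL1A2, mentioned after its values were seen, was counted 0, 11 and 5 times in Huh7 P and 0, 2 and 1 times in Huh7 LR. It was too low to test. With limma-trend on log2(FPKM + 1), a scale that understates changes of low genes, the log2 fold change of COL1A1 was 0.56, and its call held (adjusted p = 0.00783).

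The 50 other human receptor tyrosine kinases gave a wider range of changes, and 28 of them were tested. Of the 28, 12 were higher (42.9%, against 23.3% of all tested), 6 lower (21.4%, against 22.4%) and 10 did not pass. With the 2-fold limit 4 of the 28 were called, where 0 of the 8 and 6.21% of all tested were. The difference between these counts was not tested. The 4 were FGFR1 (log2 fold change -1.26), PDGFRA (-1.10), EPHA5 (-1.02) and EPHA6 (1.28). EPHA5 lay under 2-fold without Huh7 P replicate 1 (-0.97) or Huh7 LR replicate 2 (-0.93). PDGFRA missed that limit without Huh7 P replicate 1 (edgeR adjusted p = 0.00151), Huh7 P replicate 3 (edgeR adjusted p = 0.00173) or Huh7 LR replicate 3 (edgeR adjusted p = 0.00108), and without Huh7 LR replicate 2 (-0.97). With limma-trend on log2(FPKM + 0.1), EPHA5 and PDGFRA were both at -0.97, on log2(FPKM + 1) all 4 lay under 2-fold, and without a filter all 4 missed 0.001. A further 5, CSF1R, EPHA10, PTK7, STYK1 and MST1R, differed by more than 2-fold at an adjusted p under 0.05 but not under 0.001, from -1.79 for MST1R to 2.04 for CSF1R. They are named after their values were seen, and their counts were low: CSF1R was counted 11, 5 and 2 times in Huh7 P, EPHA10 9, 8 and 0 times, and MST1R 2, 4 and 10 times in Huh7 LR, and STYK1 alone reached 1 CPM, with 1.41 in Huh7 LR. The lenvatinib targets tested did not all move one way: beside FGFR1 and PDGFRA, FGFR4 was lower (-0.37), FGFR2 was higher (0.90) and FGFR3 did not pass (0.11). EPHA5 and EPHA6 belong to the same ephrin receptor class as EPHA2. A further 12 of the 50, among them KDR, FLT1 and RET, had 0 counts in all libraries.

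Genes listed as adaptors and proximal effectors of these receptors, not all of which are adaptors or carry the signal onward, were called in both directions. Of 21 tested, 7 were higher (33.3%, against 23.3% of all tested), 6 lower (28.6%, against 22.4%) and 8 did not pass, with a median log2 fold change of 0.02. NCK2, an SH2/SH3 adaptor, rose by 1.00 on the log2 scale (edgeR adjusted p = 4.53e-05), STAT3, a transcription factor activated by receptor kinases, by 0.89, and PLCG1, which encodes phospholipase Cγ1, by 0.71. IRS2, an insulin receptor substrate, moved by 0.69 (edgeR adjusted p = 0.046), and this call was lost in 6 alternatives. Leaving out any 1 library except Huh7 LR replicate 2 ended it, and without Huh7 LR replicate 1 the log2 fold change was 0.37. The 6 that were lower, named after their values were seen, were GAB1 (-0.32), PTPN11 (-0.31), SHC1 (-0.26), SOS1 (-0.25), SOS2 (-0.25) and IRS1 (-0.18), the last with an edgeR adjusted p = 0.0491. Of 17 negative regulators and shedding proteases, 5 were higher (29.4%), 4 lower (23.5%) and 8 did not pass, with a median of -0.01. PTPRJ and PTPRF, receptor phosphatases, had log2 fold changes of 0.70 and 0.67, and SOCS2, a suppressor of cytokine signalling, one of 0.63. SOCS1 had a log2 fold change of -1.28 from a mean of 1.04 CPM and lost its call without Huh7 P replicate 2 (edgeR adjusted p = 0.0724) or replicate 3 (edgeR adjusted p = 0.0826), and with limma-trend on unfiltered log2(FPKM + 0.1) (adjusted p = 0.0535). Of 4 co-receptors, CD44, a hyaluronan receptor that can present HGF to MET, fell from 4.84 to 0.708 mean CPM (log2 fold change -2.78, edgeR adjusted p = 4.99e-05). It was counted 78, 31 and 33 times in Huh7 LR, and without Huh7 LR replicate 1 the log2 fold change of CD44 was -3.38. With limma-trend on log2(FPKM + 1), a scale that understates changes of low genes, that of CD44 was -0.92. PLXNB1, PLXNB2 and ITGB4 did not pass. Higher co-receptors numbered 0 in edgeR's test, also at an unadjusted p under 0.05 and by DESeq2.

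**Figure D4:**
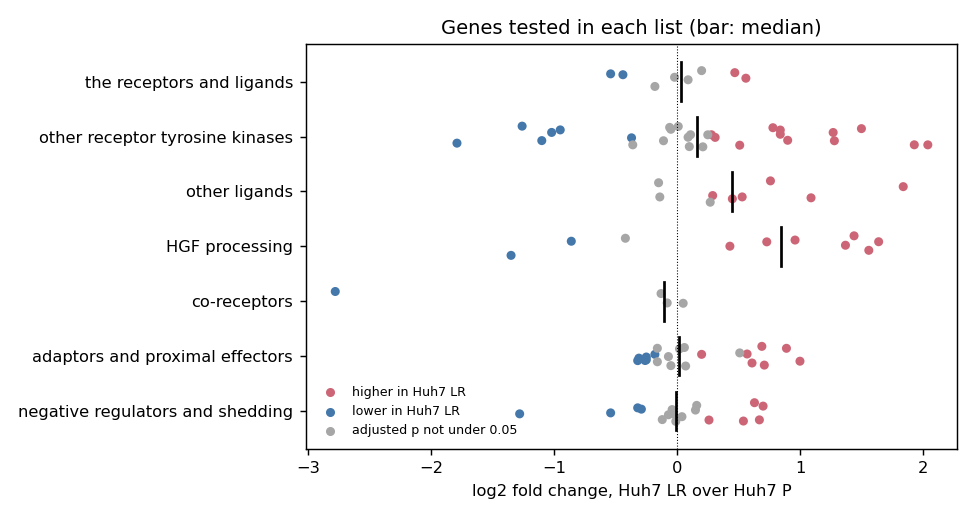
Log2 fold change of Huh7 LR over Huh7 P (horizontal axis) for each gene tested in 7 lists (vertical axis), with bars for list medians. The genes of HGF processing have the highest median, 0.84, and the 8 receptors tested lie within 2-fold of 0.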

How the data were processed

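RNA of 3 Huh7 P and 3 Huh7 LR samples was poly(A)-selected and sequenced as NEBNext Ultra libraries. The extraction label describes an insect, but the identifiers are human. Per the labels, the submitters' processing notes name TopHat2, Cufflinks, DESeq and mm10, a mouse build, without versions. The counting program and strand setting are not given in the sources used here. The authors deposited whole-number counts without normalization and FPKM values scaled for length and library size. The table holds 26184 genes and loci, and 34 lines that name no gene were left out. Coordinates and exons are those of GENCODE release 29 (GRCh38), in which all 19974 gene identifiers are present. For each of the 8 tested members no exon is shared with another gene of the table.

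The counts were fitted with edgeR 4.0.16 under R 4.3.3 (filterByExpr with minimum count 10 and minimum total 15, TMM, quasi-likelihood test). The standard error is the absolute log2 fold change over the root of F. Alternatives were DESeq2 size factors, DESeq2 1.42.0, other count filters, a replicate block, limma-trend (limma 3.58.1) on log2 FPKM with a pseudocount of 0.1 or 1, requiring 0.5 FPKM in 3 or more libraries, or with 0.1 and no such requirement, annotated genes alone, and each library left out. The test was tested on simulated data with 200 genes changed. There edgeR recovered 23 of 67 genes changed 1.5-fold, 43 of 67 changed 2-fold and 56 of 66 changed 4-fold. A gene with a small change can therefore fail to pass. Members and lists were chosen with earlier results of these data known. Named genes are all members and, per list, those past 2-fold and others with the largest changes up to 4, at a mean of at least 1 CPM in one line. Promoter sequences are from RefSeq (GRCh38.p14), where all 10 symbols matched. DDR1, AXL and TYRO3 have several starts.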

Additional observations from a re-analysis of the deposited data

How the results depend on the processing

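In all 15 alternatives, 2 of the genes were lower and 0 passed 2-fold, and 2 were higher except without Huh7 LR replicate 2, where MET made 3. INSR, IGF1R, EPHA2 and DDR1 kept direction and call in each, with adjusted p between 5.98e-08 and 0.0378. Of the other receptor tyrosine kinases, 12 were higher. They numbered 6 with limma-trend on log2(FPKM + 0.1) and 6 on log2(FPKM + 1), where the FPKM filter left 16 to test in place of 28, and 10 to 12 in the other 13 alternatives. TYRO3 had a log2 fold change of 0.01 with limma-trend on log2(FPKM + 0.1), with and without the filter, and on log2(FPKM + 1), and of -0.07 to 0.02 with single libraries left out. AXL ranged from -0.41 to 0.05 with single libraries left out. Neither passed in any. For 21 named genes that are no members, 299 of 309 values kept direction and call and 10 lost the call. The replicate numbers in the labels name no shared culture, and same-numbered samples correlated by 0.029 to 0.032 in their deviations from the line means, so they were not taken as pairs, although each sample correlated best with its own number. With the replicate block, 2 genes were higher, 2 lower and 0 past 2-fold, 12 other receptor tyrosine kinases were higher and 6 lower, and 4089 genes and loci were higher and 4033 lower over the table, against 4093 and 3923. Depth limits AXL, GAS6 and HGF, whose libraries held at most 26 counts.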

Other observations

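Genes around the members were compared with them, as position was not used to choose them. Over all tested genes and loci, 23.3% were higher and 22.4% lower. Tested genes within 2 Mb of INSR, 72 in number, had a median log2 fold change of 0.10, with 19 higher and 10 lower. The 9 near IGF1R had a median of -0.09, with 1 higher and 4 lower. Around EPHA2 the median over 27 genes was 0.11, with 7 higher and 5 lower, and around DDR1 it was -0.05 over 94 genes, with 15 higher and 13 lower. Around MET it was 0.03 over 12 genes, with 4 higher and 1 lower. Of 74 genes near AXL, 14 were higher and 25 lower (median 0.11), of 29 near MERTK 7 and 7 (-0.01), of 70 near TYRO3 21 and 16 (0.03), of 17 near GAS6 6 and 4 (0.03), and of 4 near HGF 1 was higher (0.33).

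DDR1 had the largest absolute log2 fold change of the members (0.56, against -0.54 for IGF1R), but not without Huh7 LR replicate 1 (0.42 against -0.59) or without Huh7 P replicate 3 (0.50 against -0.63), nor with limma-trend on log2(FPKM + 1), where INSR had 0.47 and DDR1 0.42. It was compared over the 6 libraries with 12295 annotated genes of at least 1 CPM. FAM160A1 had the most similar pattern (Pearson's r of log2(CPM + 1) 0.9996), followed by CXorf38 (0.997) and SCD (0.9938), a fatty acid desaturase. The libraries share the contrast between the lines, and 267 genes had r above 0.95, so the order describes these libraries. FAM160A1 had 8.50 CPM in Huh7 LR replicate 1 and 5.70 and 5.61 CPM in the others, the same outlying library as DDR1.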
